A study of Homo sapiens with 12 samples.

Results

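U937 cells treated with decitabine (DAC) plus all-trans retinoic acid (ATRA) were compared with untreated U937 cells in 6 RNA-seq libraries, 3 per group, of 12 libraries in the series. U937 is an established human myelomonocytic leukemia cell line, and all libraries came from this single line. Per the labels, the combination was 200 nM DAC and 1 µM ATRA with harvest at 72 h, and the untreated cells were labelled 96 h. The labels also give 20% FCS and 5 ng/ml GM-CSF, a growth factor of myeloid cells, for all groups, whereas the study's methods give a lower serum content and do not mention GM-CSF for this line. The other 6 libraries, 3 with DAC alone at 200 nM and 3 with ATRA alone at 1 µM, were used for the estimate of error and for values given side by side. The study's methods place ATRA at the third daily DAC dose, whereas the labels do not separate the start of the drugs. The design text calls the 3 libraries of a group technical triplicates, so the p-values measure the spread between these libraries and not between independent cultures. The study's text gives a single harvest time for untreated and treated cells, in conflict with the labels. If the labels hold, treatment and culture time cannot be told apart.

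DAC is a cytosine analogue that is built into DNA during replication and traps DNA methyltransferases there, so that methylation is lost over the following divisions and genes silenced by it can be transcribed again. ATRA is the ligand of the retinoic acid receptors, nuclear receptors that bind DNA with a retinoid X receptor and switch from repression to activation when the ligand is present. In myeloid leukemia ATRA is best known for driving differentiation towards granulocytes and monocytes, and loss of DNA methylation is known to release germline genes, endogenous retroviruses and interferon-stimulated genes.

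The values were read counts per transcript that the authors had divided by 1 size factor per library, called normalized read counts here. Between 8042435 and 10683593 reads per library were counted, 36.3% to 42.5% of them on mitochondrial transcripts, and 3 reads equalled 2.50 to 3.71 normalized reads. Libraries of the same group correlated at 0.986 to 0.990 over the tested transcripts, and untreated with DAC + ATRA libraries at 0.834 to 0.848. The first principal component held 76.6% of the variance over the 12 libraries and separated both groups. On it the DAC libraries, at 58.0 to 72.9, lay near DAC + ATRA, at 74.5 to 82.5. The ATRA libraries, at -67.7 to -61.1, lay nearer to untreated, at -83.7 to -82.0. Counting was per transcript, and some genes expected in these cells were low in this table. ACTB had 4.60, 7.28 and 1.85 normalized reads in the untreated libraries, and PTPRC, which encodes the leukocyte antigen CD45, had 0 in all 12. Low or zero values can therefore come from the counting. Where a gene is called most abundant below, this holds for the tested transcripts as counted here and not for the level of the gene in the cell. The summed level of 15 myelomonocytic markers was 5672 to 6010 normalized reads in untreated and 8063 to 8308 in DAC + ATRA libraries. The 10 T cell markers summed to 2.76 to 10.2 and 838 to 1077, mostly CD5, with CD28 at 0 in all libraries and CD3D, CD3E and CD3G low. The 13 erythroid markers summed to 101 to 125 in untreated and 69.2 to 87.7 in DAC + ATRA libraries, with 9 of them at 0 throughout. Other lists also had higher sums with the combination, with 493 to 560 and 1778 to 1903 for 10 B and plasma cell markers, 28.5 to 54.5 and 348 to 387 for 9 megakaryocytic markers, and 25.5 to 47.1 and 410 to 481 for 10 fibroblast and endothelial markers. The sums were 64.3 to 77.4 and 136 to 141 for 10 mast cell and eosinophil markers, 21.8 to 29.6 and 36.2 to 48.4 for 8 natural killer cell markers, and 5.54 to 8.19 and 12.4 to 27.4 for 9 epithelial markers. The part of such genes in the results was not tested. In bulk RNA, fewer cells of a type and less RNA per cell cannot be told apart.

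DAC + ATRA changed many of the expressed protein-coding genes, and the largest changes were rises. Of 7622 gene symbols tested, each by its most abundant protein-coding transcript, 2673 rose (35.1% of those tested) and 1120 fell (14.7%), at an adjusted p under 0.01 in limma with Benjamini-Hochberg adjustment. The groups did not overlap for 5266 symbols (69.1%). The median log2 fold change was 0.22 over all symbols with the authors' scaling and 0.08 with edgeR's TMM scaling. Over the 9016 transcripts tested it was 0.20 and 0.06, and -0.04 with library size without mitochondrial transcripts. The sign of the median thus depends on the scaling, and fold changes below are best read against these medians. Of 9016 transcripts tested, 4215 changed, 69.7% of them upwards with the authors' scaling. With the other scalings tried, 59.0% (edgeR), 59.3% (limma with TMM), 59.4% (DESeq2) and 51.8% (library size without mitochondrial transcripts) of the changed transcripts rose.

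The rises were much larger than the falls. Of the risen symbols, 288 had a log2 fold change of at least 5, 475 had one between 3 and 5 and 854 changed less than 2-fold. Of the fallen symbols, 2 lay beyond 3 and 709 changed less than 2-fold. Most of the large rises started from very few reads, since 271 of the 288 had an untreated mean under 10. A symbol with an untreated mean under 10 could only be tested because a treated group was higher, and 987 of these 1353 symbols rose and 1 fell. Among the 6269 symbols with an untreated mean of at least 10, 1686 rose (26.9%) and 1119 fell (17.9%). No read was counted in any untreated library for 262 of the tested symbols, which entered the test through a treated group, and all 262 rose. Of these 262, 45 reached 100 normalized reads with DAC + ATRA, 42 with DAC and 0 with ATRA. In reads, the risen symbols took 27.4% to 27.5% of the non-mitochondrial reads of tested symbols in untreated cells and 47.6% to 48.6% with DAC + ATRA. The fallen symbols took 24.8% to 24.9% in untreated cells and 12.2% to 12.6% with DAC + ATRA. Both sets were chosen by their direction.

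**Figure D1:**
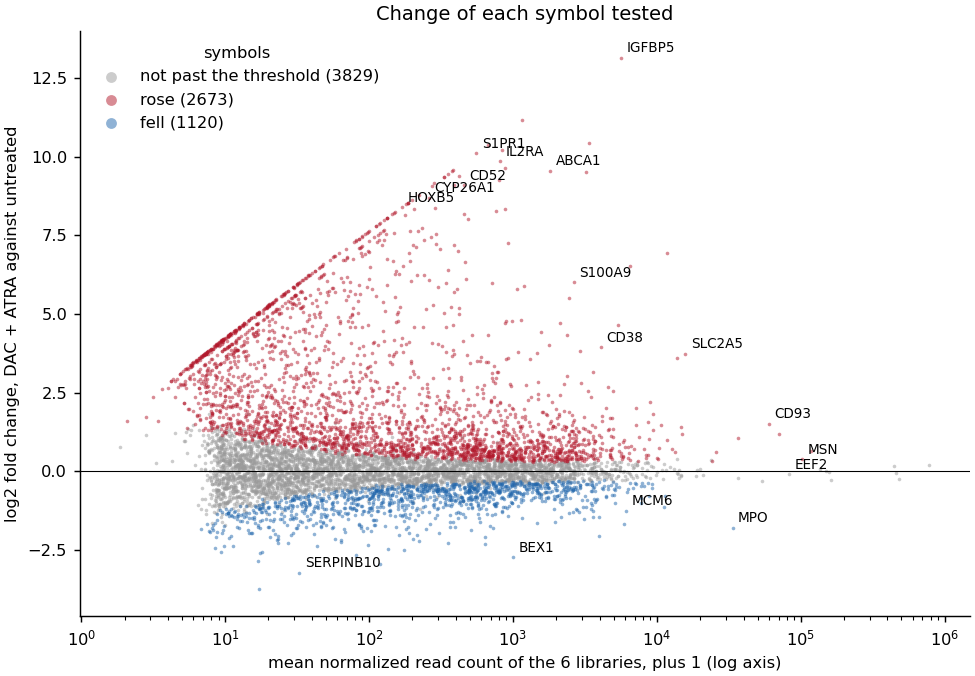
Change with DAC + ATRA relative to untreated cells (vertical, log2) over the mean normalized read count of the 6 libraries plus 1 (horizontal, log axis) for 7622 symbols. The 2673 symbols that rose are red and spread much farther from 0 than the 1120 that fell, in blue, and the diagonal edge at low levels is made of symbols with no read in untreated cells.

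The gene with the largest change was IGFBP5, a secreted binding protein of insulin-like growth factors. Its normalized read count was 0, 0 and 0.924 in the untreated libraries and 9685, 12458 and 11670 with DAC + ATRA. DAC alone gave a mean of 3285 and ATRA alone one of 3.53. A single untreated read stands behind the ratio of 36503, whose 95% counting interval starts at 6551. SLC2A12, a sugar transporter, stood at 6.43, 1.82 and 4.62 in untreated libraries and at 5992, 7254 and 6958 with the combination, a log2 fold change of 10.42 ± 0.32 (SE, adjusted p = 3.99e-12). Its means were 221 with DAC and 383 with ATRA. SCUBE1, a secreted and surface protein with EGF-like repeats, rose from 8.27, 5.46 and 10.2 to 6008, 6872 and 6437 (9.52 ± 0.16). The groups did not overlap in these genes, which their choice required.

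S1PR1, the sphingosine-1-phosphate receptor that guides lymphocyte exit from tissues, had no read in untreated cells and 1012, 1204 and 1116 normalized reads with DAC + ATRA, at least 1204-fold higher against 3 reads over the untreated group. IL2RA, the alpha chain of the interleukin-2 receptor, went from 1.84, 0 and 0.924 to 1469, 1765 and 1666, a ratio of 1769 with a counting interval of 605 to 8579 and 3 untreated reads. CD5, a surface regulator of T cells, went from 0 in all 3 libraries to 677, 862 and 756. CD5 had a DAC mean of 824, whereas S1PR1 and IL2RA had DAC means of 206 and 53.4.

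ABCA1, the pump that moves cholesterol to lipoproteins, rose from 1.84, 3.64 and 7.39 to 3124, 3493 and 4281 (9.55 ± 0.33, adjusted p = 1.05e-11), with means of 545 with DAC and 261 with ATRA. NOVA2, a neuronal splicing factor, reached 1559 to 1779 normalized reads from 2 untreated reads. IGF2BP1, a fetal RNA-binding protein, reached 1605 to 1875. ADAM19, a membrane metalloproteinase, reached 755 to 911 from 1 untreated read. LRRC4, at least 1433-fold higher, CLIC5, at least 807-fold, and ENDOD1, at least 761-fold, had no untreated read. The uncharacterized X-chromosomal RP13-147D17.3 went from no untreated read to at least 2490-fold more. LRRC4 and IGF2BP1 had DAC means of 933 and 1653 against 1329 and 1755.5 with the combination, differences that did not pass, and ATRA means of 6.86 and 7.9.

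The largest falls were smaller than the largest rises. SERPINB10, a myeloid serine protease inhibitor, fell from 46.0, 64.6 and 63.7 normalized reads to 7.23, 5.26 and 3.71 (log2 fold change -3.23 ± 0.29, adjusted p = 7.54e-09). BEX1, a small adaptor protein encoded on the X chromosome, fell from 1739, 1740 and 1743 to 228, 279 and 273 (-2.74 ± 0.12, adjusted p = 6.5e-14). It had means of 539 with DAC and 546 with ATRA. BCL11A, a zinc finger repressor of fetal globin genes, fell from 124, 101 and 85.9 to 17.2, 20.0 and 29.7 (-2.19 ± 0.28). MATR3, a nuclear matrix protein, fell by 2.28 on the log2 scale. MAPK12, a p38 kinase, had a log2 fold change of -2.24 and HIST1H4B, a replication-dependent histone, one of -2.39. PPA1, an inorganic pyrophosphatase, fell from 353, 270 and 257 to 73.2, 23.2 and 72.9. C10orf11, TSPAN2, BZRAP1, ATP13A3, C1orf233, BEND6, FAM180B and FAM81A made up the rest of the 15, with log2 fold changes from -2.95 to -2.21. The groups did not overlap in any of the 30 genes, which the choice required.

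The 10 most abundant genes past the threshold show the program at high read numbers. MPO, the granule enzyme myeloperoxidase, fell from 52196, 55158 and 49005 to 15267, 15452 and 14199 (-1.799 ± 0.14). SLC2A5, a fructose transporter, rose from 2350, 2206 and 2050 to 27770, 30844 and 29565 (3.74 ± 0.10, adjusted p = 2.5e-17), and its ATRA mean was 26107. CD93, a myeloid and endothelial C-type lectin-like receptor, rose from 28842 to 34698 in untreated libraries to 82449 to 94071. Both were close to their ATRA values, 91064 for CD93. TMSB10, an actin-binding thymosin, rose by 1.17 on the log2 scale, MYH9, the non-muscle myosin heavy chain, by 1.04 and UBE2J1, a ubiquitin-conjugating enzyme of the endoplasmic reticulum, by 1.19. PLEK, a substrate of protein kinase C, rose by 0.60, MT-CYB, mitochondrial cytochrome b, by 0.64, MSN, which links actin to the membrane, by 0.38 and SLC38A1, a glutamine transporter, by 0.32, the last of which did not pass with edgeR (adjusted p = 0.0335).

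Genes were then grouped by function into 46 lists. Counts of members that rose or fell are to be read against 35.1% and 14.7% of all symbols, and members that started under 10 normalized reads entered the test only through a treated group. Counts given with TMM scaling are to be read against 2409 risen and 1616 fallen of all 7622 symbols with that scaling. Medians of lists are therefore given over members with an untreated mean of at least 10, beside 0.05 for all 6269 such symbols, of which 26.9% rose and 17.9% fell.

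**Figure D2:**
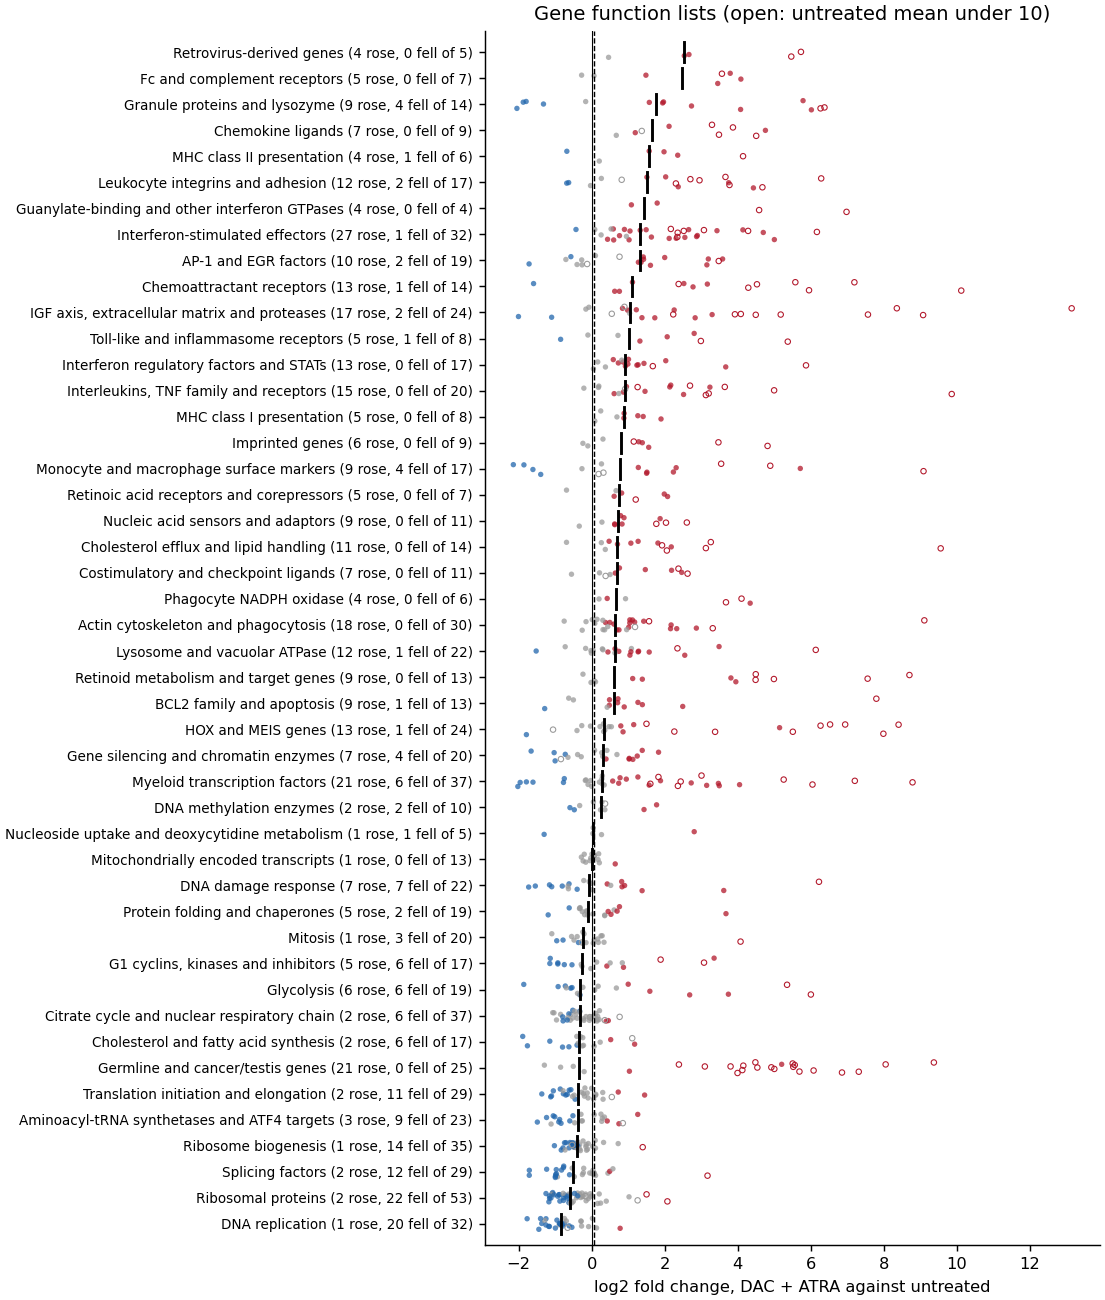
Change with DAC + ATRA relative to untreated cells (log2) for each tested member of 46 gene function lists, with 1 point per gene (red rose, blue fell, grey not past the threshold, open where the untreated mean was under 10), a black bar at the median of the members with an untreated mean of at least 10 and a dashed line at 0.05, that median over all symbols. The interferon-stimulated effectors have a median of 1.32, DNA replication has the lowest at -0.85, and most open points lie to the right of 0.

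CYP26A1, the enzyme that degrades retinoic acid and a classic target of its receptor, had 0, 0 and 0.924 normalized reads in untreated cells and 516, 604 and 437 with DAC + ATRA, a ratio of 1710 with a counting interval of 307 to 67603 from 1 untreated read. Its means were 0.649 with DAC and 3.91 with ATRA, and the combination was above both (adjusted p = 1e-10 and 3.6e-10). HIC1, a transcriptional repressor known to be silenced by methylation in tumors, rose from 1.84, 2.73 and 1.85 to 533, 623 and 596 (7.55 ± 0.20, adjusted p = 2.99e-17), with means of 8.14 with DAC and 188 with ATRA. CD38, an ectoenzyme induced by retinoids, rose from 436, 543 and 508 to 7167, 7608 and 8075 (3.94 ± 0.12), while DAC alone had 306 and ATRA alone 9402. DHRS3, a retinal reductase, rose by 3.81 and had an ATRA mean of 4664 against 5417 ± 409 with the combination. Thus CYP26A1 and HIC1 were higher with the combination than with ATRA alone, and CD38 and DHRS3 did not pass in that comparison (adjusted p = 0.039 and 0.15).

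Of 28 retinoid metabolism and target genes, 13 were tested, 9 rose and 0 fell. Of these 9, 5 had an untreated mean under 10, and of the 8 members that started at 10 or more, 4 rose, with a median of 0.61. The other members that rose were RIN3, TGM2, RARRES3, ALDH1A1 and PRAM1, of which PRAM1, an adaptor of myeloid cells induced by ATRA, changed least (1.12 ± 0.12). TGM2, the tissue transglutaminase, had no untreated read and 18.99, 20.0 and 25.95 normalized reads with DAC + ATRA. RDH10, RDH11, RDH14 and DHRS9, which oxidize or reduce retinol and retinal, did not pass. Of 7 tested retinoic acid receptors and cofactors, 5 rose, or 3 with TMM scaling. RARA, the receptor for ATRA, rose from 142, 122 and 120 to 526, 573 and 526 (2.07 ± 0.16, adjusted p = 6.75e-10), and its means with DAC and ATRA were 310 and 193. NCOA3, a coactivator of nuclear receptors, rose by 1.98, and NCOR1, a corepressor, by 1.20. RARB, RARG and the RXR genes were not among the symbols tested.

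Among 10 tested DNA methylation enzymes and readers, 2 rose and 2 fell, a risen share below that of all symbols. Of 5 tested genes of nucleoside uptake and deoxycytidine metabolism, 1 rose and 1 fell. DNMT3A, a de novo methyltransferase, rose from 1035, 1059 and 982 to 2832, 2737 and 2714 (1.43 ± 0.09), near its ATRA mean of 2664 and above its DAC mean of 1279. ZBTB38, which binds methylated DNA, rose from 12.5 ± 1.36 to 45.7 ± 8.52 normalized reads. TET1, which oxidizes methylcytosine, fell by 0.60 on the log2 scale. TET3, the most abundant member, had 2576 ± 127 and 3036 ± 97.5 and did not pass (adjusted p = 0.0249). DNMT1, DNMT3B and UHRF1 were not among the symbols tested. In the handling of DAC itself, SAMHD1, which cleaves deoxynucleotides and their decitabine analogue, rose from 164, 207 and 194 to 1283, 1326 and 1328 (2.80 ± 0.11, adjusted p = 1.09e-14), with means of 418 and 438 with the single agents. DTYMK, a thymidylate kinase, fell from 26.6 ± 6.75 to 10.01 ± 1.19.

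Most of the tested interferon-stimulated genes rose. Interferons signal through JAK kinases and STAT factors to a complex that binds the interferon-stimulated response element (ISRE) in the promoters of antiviral effectors. Of 32 tested interferon-stimulated effectors, 27 rose and 1 fell. Among the 25 that started at 10 or more normalized reads, 20 rose and 1 fell, with a median of 1.32. Of the 10 interferon genes in the table, 0 passed the filter on low values.

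Of the 32 effectors, 23 matched a RefSeq promoter (250 bases before to 50 after the gene start), and 14 of these (60.9%) held the ISRE core GAAANNGAAA on either strand, with overlapping matches counted. The same letters were found in 3.01% of the 6213 matched promoters of tested symbols and in 3.65% of all 27195 promoters. Below, promoter stretches of 6 genes that rose are shown because they carry such matches, with the core in capitals, read 5′ to 3′ on the strand of the gene, all in GRCh38.p14. A core on the opposite strand reads TTTCNNTTTC.
IFIT1, chr10:89392477-89392559, plus strand: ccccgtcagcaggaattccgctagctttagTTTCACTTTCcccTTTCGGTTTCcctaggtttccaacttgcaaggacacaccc
IFIT5, chr10:89414493-89414575, plus strand: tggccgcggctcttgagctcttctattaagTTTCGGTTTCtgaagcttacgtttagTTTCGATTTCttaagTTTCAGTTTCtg
ISG15, chr1:1013354-1013429, plus strand: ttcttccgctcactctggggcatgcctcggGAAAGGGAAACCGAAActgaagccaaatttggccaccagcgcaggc
RTP4, chr3:187368313-187368392, plus strand: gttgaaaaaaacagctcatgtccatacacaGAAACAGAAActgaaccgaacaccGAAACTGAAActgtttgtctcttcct
GBP1, chr1:89065296-89065365, minus strand: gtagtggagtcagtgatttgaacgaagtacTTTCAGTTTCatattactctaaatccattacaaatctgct
GBP4, chr1:89198935-89198976, minus strand: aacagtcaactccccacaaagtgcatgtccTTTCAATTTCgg
BST2, HERC5 and PARP12 also held the core and did not pass the threshold. Among the effectors shown, IFIT5, which binds the ends of viral RNA, rose from 74.4, 55.5 and 64.6 to 1503, 1678 and 1923 normalized reads (4.69 ± 0.13, adjusted p = 5.99e-17). RTP4 rose from 14.7, 14.6 and 9.24 to 213, 255 and 247. ISG15, a ubiquitin-like modifier, had 5.51, 1.82 and 3.69 and then 12.7, 31.6 and 24.7, a rise at few reads, and IFIT1 rose from 2 reads in all untreated libraries to a mean of 12.01 ± 1.42. The matches describe letters in a window and not the binding of a factor.

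Across the effectors, OAS1, which makes the activator of RNase L, rose from 23.0, 23.7 and 26.8 to 778, 767 and 895 (5.00 ± 0.14, adjusted p = 6.73e-17). It had means of 147 with DAC and 65.1 with ATRA, so each single agent lay between. OAS3 rose from 1370, 1497 and 1488 to 7771, 8706 and 9024 (2.55 ± 0.09). IFI44L had the highest log2 fold change of the list, from 2.76, 0 and 0.924 to 131, 126 and 157. RSAD2, the antiviral enzyme viperin, rose by 2.89, and APOL6, the most abundant tested member, by 1.32 (2846 ± 87.3 to 7137 ± 438). MX2, a dynamin-like GTPase that blocks viruses in the nucleus, was the member that fell (-0.43 ± 0.13, adjusted p = 0.00732), and it did not pass when transcripts were summed by symbol (adjusted p = 0.121). BST2 stood at 768, 849 and 806 against 989, 1001 and 902 and did not pass.

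The guanylate-binding proteins, interferon-induced GTPases that attack pathogen vacuoles, rose in 4 of 4 tested members. GBP4 had 0, 2.73 and 0 in untreated cells and 174, 179 and 235 with DAC + ATRA, a ratio of 210 with a counting interval of 71.5 to 1021 from 3 reads. Its means were 3.02 with DAC and 10.4 with ATRA, and the combination was above both (adjusted p = 5.8e-09 and 9e-08). GBP5 rose from 357, 334 and 400 to 1252, 1247 and 1267 (1.79 ± 0.10), GBP1 from 1.22 ± 1.39 to 46.2 ± 12.5 and IRGM by 1.08. GBP4 and GBP1 started under 10 normalized reads.

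Of 11 tested sensors of nucleic acids and their adaptors, 9 rose and 0 fell, or 8 and 1 with TMM scaling, and of the 8 that started at 10 or more, 6 rose. IFIH1, the cytosolic sensor of long double-stranded RNA also called MDA5, rose from 143, 148 and 152 to 464, 566 and 612 (1.87 ± 0.13, adjusted p = 7.86e-11). DDX58, the sensor RIG-I, rose from 9.19, 4.55 and 4.62 to 25.3, 32.6 and 23.5 (2.03 ± 0.34). MAVS, the mitochondrial adaptor of both, had 26.7, 20.0 and 16.6 and then 33.5, 40.0 and 39.5 (0.83 ± 0.24, adjusted p = 0.00632), and it did not pass with edgeR (adjusted p = 0.0222). TLR3, the endosomal sensor of double-stranded RNA, rose from 2.76 ± 1.85 to 19.9 ± 2.81, and the kinase TBK1 by 0.88. TRIM25, which activates RIG-I, rose by 0.63 and TICAM1, the adaptor of TLR3, by 0.62. MB21D1, the DNA sensor cGAS, had 382, 382 and 321 against 405, 398 and 519 and did not pass (adjusted p = 0.103).

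Interferon regulatory factors, STATs and their receptors rose in 13 of 17 tested members, and 0 fell. Of the 15 that started at 10 or more, 11 rose. IRF1, a transcription factor of the interferon-gamma response, rose from 53.3, 53.7 and 53.6 to 604, 746 and 733 (3.67 ± 0.14), with means of 125 with DAC and 338 with ATRA. SOCS1, the feedback inhibitor of JAK kinases, rose from 6.43, 0 and 3.69 to 185, 194 and 189 and had a DAC mean of 154. JAK1 rose by 0.92, JAK2 by 0.99, STAT3 by 0.86 and the receptor chain IFNAR2 by 1.23. IRF8, a factor of monocyte and dendritic cell fate, had 55.1 ± 6.43 and 71.3 ± 1.72 and did not pass.

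Antigen presentation rose in part. Of 8 tested MHC class I genes, 5 rose and 0 fell. TAP1, the peptide transporter, rose from 30.3, 28.2 and 24.0 to 109, 103 and 101 (1.89 ± 0.18). Of 6 tested MHC class II genes, 4 rose and 1 fell, 3 of the risen among the 5 that started at 10 or more. CIITA, the master activator of class II genes, rose from 2.76, 1.82 and 3.69 to 53.3, 70.5 and 69.2, and HLA-DRB1 from 87.3, 85.6 and 80.3 to 438, 453 and 414 (2.35 ± 0.14). HLA-DRB1 and HLA-DRB5 are near-identical, so reads may be split between them. CTSS, the protease that trims the invariant chain, rose by 1.57, and RFXAP, a subunit of the complex that binds class II promoters, fell by 0.68 on the log2 scale. Of 11 tested costimulatory ligands, 7 rose and 0 fell, 5 of them among the 8 that started at 10 or more. ICAM1, the ligand of leukocyte integrins, rose from 461, 461 and 437 to 2218, 2684 and 2615 (2.46 ± 0.11), TNFSF9, the ligand of 4-1BB, by 2.18 and CD80, the ligand of CD28, from 1.84 ± 0.0135 to 16.5 ± 1.91.

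Of 17 tested monocyte and macrophage markers, 9 rose and 4 fell. Of the 12 that started at 10 or more, 6 rose and 4 fell. MRC1, the mannose receptor of macrophages, rose from 20.2, 12.7 and 9.24 to 617, 838 and 822 (5.71 ± 0.25, adjusted p = 7.17e-13). Its DAC mean was 1093 and its ATRA mean 10.2. CD52, a glycoprotein of lymphocytes and monocytes, went from 0, 3.64 and 0 to 809, 852 and 1068. SIRPA, the receptor that restrains phagocytosis, rose by 2.23 and CD300C by 2.31. Some lectin receptors moved the other way. CLEC5A, a C-type lectin of monocytes, fell from 3413, 2841 and 2649 to 955, 953 and 985 (-1.61 ± 0.15), CLEC12A fell by 1.399 on the log2 scale and CLEC4D, a lectin of neutrophils and macrophages, from 36.7 ± 5.30 to 7.53 ± 1.44. FCN1, a secreted ficolin of monocytes, fell from 11.6 ± 3.27 to 2.77 ± 2.18. CD4 had 3720 ± 254 and 4462 ± 42.5 and did not pass (adjusted p = 0.0503).

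Integrins and adhesion receptors rose in 12 of 17 tested members, and 2 fell. Of the 9 that started at 10 or more, 5 rose. ITGAM, the CD11b chain that marks myeloid maturation, rose from 189, 200 and 217 to 2799, 2778 and 2599 (3.75 ± 0.10, adjusted p = 2.08e-17). DAC alone had a mean of 856 and ATRA alone one of 1002. ITGAX, the CD11c chain, rose from 6.72 ± 1.36 to 103 ± 4.70, ITGB5 from 3.37 ± 1.93 to 320 ± 37.3 and PECAM1 from 129, 134 and 151 to 2833, 3183 and 2923. CD44, the hyaluronan receptor, fell from 4442, 4396 and 4054 to 2658, 2773 and 2873 (-0.63 ± 0.11), and ITGA4, the alpha chain of VLA-4, by 0.69 on the log2 scale. For both, the DAC means were 4797 and 1669, above the untreated values.

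Receptors for chemoattractants rose in 13 of 14 tested members, and 1 fell. Of the 7 that started at 10 or more, 6 rose. CCR1 rose from 699, 554 and 491 to 3756, 3965 and 4084 (2.77 ± 0.13), and CXCR1, an interleukin-8 receptor of neutrophils, from 0 to 57.9, 69.5 and 55.6, at least 66.6-fold. CXCR5, CCR2 and CCR7 had means of 139, 65.7 and 29.5 with the combination and 170, 83.03 and 32.4 with ATRA, and these differences did not pass. P2RY2, a nucleotide receptor, fell from 48.3 ± 3.47 to 15.9 ± 5.71. Complement receptors also rose, with C5AR1 from 43.2, 49.2 and 44.3 to 608, 687 and 633 (3.79 ± 0.13) and C5AR2 by 4.08. Of 7 tested Fc and complement receptor genes, 5 rose and 0 fell, and of the 6 that started at 10 or more, 4 rose. Among the Fc receptors, FCGR2C rose by 3.56, while FCGR2A and FCGR1A did not pass, at 382 ± 16.5 against 398 ± 23.3 and 161 ± 23.2 against 132 ± 14.3.

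Of 9 tested chemokine ligands, 7 rose and 0 fell, and of 20 interleukins, TNF family members and receptors, 15 rose and 0 fell, or 14 and 1 with TMM scaling. From untreated means of at least 10, 3 of 4 and 8 of 12 rose. CCL1, a monocyte attractant, rose from 8.27, 11.8 and 10.2 to 279, 323 and 285 (4.75 ± 0.17) and lay below its DAC mean of 690. XCL2 rose from 6.11 ± 1.86 to 77.1 ± 9.73 with a DAC mean of 585, and its near-identical copy XCL1 from 11.02 ± 2.49 to 27.4 ± 9.81 with a DAC mean of 105. CXCL8, which attracts neutrophils, had 207, 113 and 123 and then 514, 592 and 779 (2.11 ± 0.26). CXCL10, an interferon-induced chemokine, rose from 4.59 ± 3.32 to 45.4 ± 7.84. IL1B rose from 70.8, 54.6 and 61.9 to 554, 620 and 604 (3.23 ± 0.15), IL1A from 4.27 ± 3.43 to 146 ± 9.86 and IL7R, the interleukin-7 receptor, by 2.16. IL16 changed least among those that rose (0.61 ± 0.10), and IL27RA, the most abundant member tested, had 1834 ± 88.7 and 1576 ± 66.3 and did not pass.

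Of 8 tested pattern receptors, 5 rose and 1 fell, 3 of the risen among the 6 that started at 10 or more. CD180, a Toll-like receptor homologue, rose from 809, 716 and 719 to 4858, 5568 and 5247 (2.80 ± 0.10), TLR4, the endotoxin receptor, by 1.32 and NOD2, the sensor of muramyl dipeptide, from 1.84 ± 1.85 to 96.6 ± 6.09. TLR2, the receptor for bacterial lipoproteins, fell from 1065, 1102 and 1134 to 615, 604 and 606 (-0.85 ± 0.10). In the phagocyte NADPH oxidase, which makes superoxide, 4 of 6 tested members rose and 0 fell. Of the 4 that started at 10 or more, 2 rose. CYBB, its catalytic subunit, rose from 250.9, 212 and 210 to 4489, 4522 and 4580 (4.34 ± 0.11, adjusted p = 1.24e-17), with means of 2993 with DAC and 654 with ATRA. NCF1, an organizer with near-identical pseudogenes, went from 0 to 15.4, 15.8 and 17.3. CYBA, the partner of CYBB, had 541, 574 and 491 and then 1071, 1064 and 916 and did not pass (0.92 ± 0.28, adjusted p = 0.0117).

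Granule proteins split. Of 14 tested, 9 rose and 4 fell, and of the 12 that started at 10 or more, 7 rose and 4 fell. S100A9, the calprotectin subunit, rose from 80.9, 84.7 and 74.8 to 4816, 5269 and 5622 (6.01 ± 0.13, adjusted p = 2e-18), and its single-agent means of 1089 and 974 lay between. LYZ, lysozyme, rose from 157, 155 and 181 to 954, 1160 and 1178 (2.73 ± 0.15), with means of 806 with DAC and 179 with ATRA. MMP9 rose by 5.78, CAMP, the cathelicidin, by 4.07 and SRGN, the granule proteoglycan, by 1.96. CEACAM1 had no untreated read and 82.3, 95.8 and 69.2 normalized reads with the combination. BPI, a bactericidal protein of neutrophil granules, went from 1 untreated read to 88.6, 89.5 and 106. The 4 members that fell were RNASE2, RNASE3, MPO and CST7, an inhibitor of granule proteases, and classes of granules were not compared. RNASE2 fell from 6817, 6280 and 6079 to 1571, 1676 and 1387 (-2.05 ± 0.13), RNASE3 fell by 1.88, MPO fell by 1.799 and CST7, cystatin F, fell by 1.32 on the log2 scale. For RNASE2, RNASE3 and MPO the combination was below both single agents, whereas CST7 had an ATRA mean of 175 and a DAC mean of 861 against 227 ± 18.96.

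**Figure D3:**
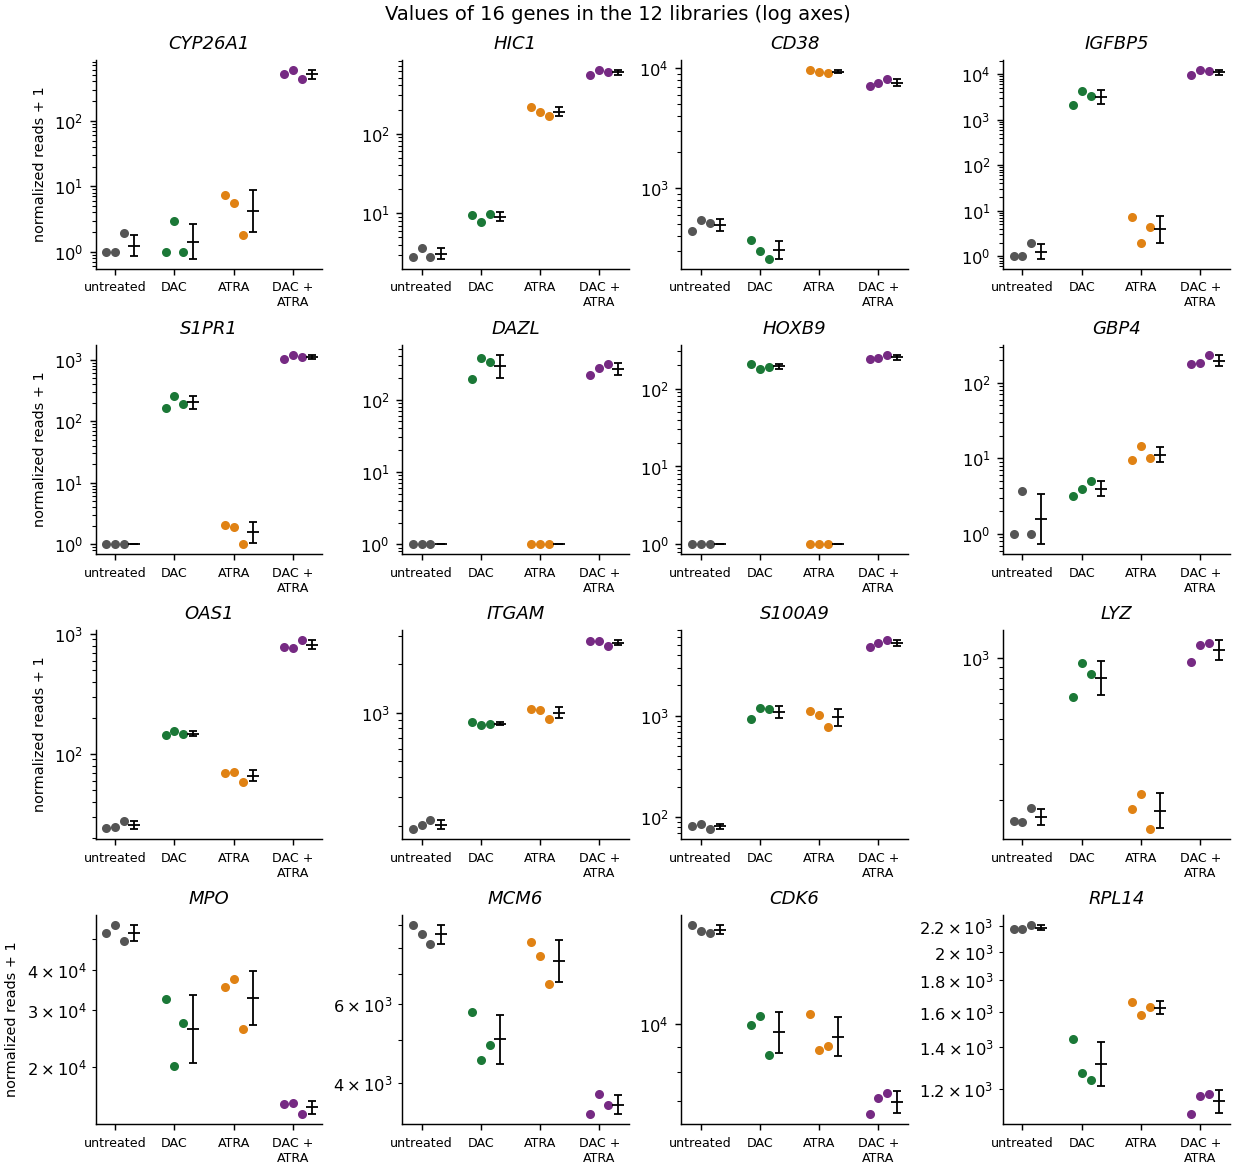
Normalized read count plus 1 (log axes, each with its own range) of 16 genes in the 12 libraries, by treatment, with 1 point per library and bars for the mean ± SD of the log values. CYP26A1 and GBP4 are highest with DAC + ATRA, DAZL and HOXB9 are high with DAC and with DAC + ATRA, CD38 with ATRA and with DAC + ATRA, and MPO, MCM6, CDK6 and RPL14 are lowest with DAC + ATRA.

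Among 37 tested myeloid transcription factors, 21 rose and 6 fell. Of the 28 that started at 10 or more, 12 rose. CEBPD, a factor of terminal myeloid differentiation, had no untreated read and 429, 474 and 416 with DAC + ATRA, at least 480-fold. CEBPE, which drives secondary granule genes, rose from 276, 266 and 227 to 1606, 1856 and 1618 (2.72 ± 0.13), CEBPB by 1.88 and CEBPA, the most abundant tested member, from 8764, 7716 and 6892 to 12642, 13714 and 12435 (0.74 ± 0.16). KLF2, a quiescence factor of leukocytes, rose from 4.28 ± 0.508 to 778 ± 106, and BHLHE40 by 3.14. GATA2, a factor of progenitors and mast cells, rose from 3.68, 4.55 and 6.46 to 361, 422 and 361 and lay below its DAC mean of 985. GFI1, a repressor of granulocyte progenitors, fell from 243, 260 and 264 to 48.8, 78.9 and 61.8 (-2.03 ± 0.17), ZEB2 by 1.96, MYB by 1.61 and LMO2 by 0.75 on the log2 scale. SPI1, which encodes PU.1, had 127 ± 9.93 and 118 ± 14.3 and did not pass.

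Of 19 tested AP-1, EGR and NF-kappaB genes and their feedback genes, 10 rose and 2 fell, 9 of the risen among the 16 that started at 10 or more. DUSP5, a nuclear phosphatase of ERK, rose from 229, 202 and 172 to 2039, 2720 and 2488 (3.58 ± 0.19). JUN rose by 1.409 and JUNB by 1.35, while their ATRA means were 755 and 2469 against 3404 ± 346 and 4517 ± 317 with the combination. EGR1 had 324, 134 and 82.2 in untreated cells, a wide spread, and 1445, 1395 and 1261 with DAC + ATRA. RELA, a subunit of NF-kappaB, fell from 33.1, 54.6 and 58.2 to 16.3, 10.5 and 14.8. In the lysosome, 12 of 22 tested members rose and 1 fell, 10 of the risen among the 20 that started at 10 or more. CTSD, an aspartic protease, rose from 21.1, 14.6 and 15.7 to 197, 189 and 213, and TFEB, the regulator of lysosomal genes, from 11.01 ± 5.60 to 64.7 ± 4.403. Of 30 tested genes of the actin cytoskeleton, 18 rose and 0 fell, or 17 and 1 with TMM scaling, and of the 26 that started at 10 or more, 15 rose. FSCN1, which bundles actin filaments, went from 0, 1.82 and 0 to 782, 872 and 687, with a DAC mean of 1227 and an ATRA mean of 0.

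Genes of the germline and the cancer/testis class are normally transcribed in germ cells and held off elsewhere by promoter methylation. Of 25 tested, 21 rose and 0 fell, 19 of the 21 from untreated means under 10, and 9 had no untreated read. Of the 6 that started at 10 or more, 2 rose, with a median of -0.36, and with TMM scaling 3 of the 25 fell. DAZL, an RNA-binding protein of germ cells, had no untreated read and 217, 269 and 311 normalized reads with DAC + ATRA, at least 285-fold. Its DAC mean was 301 and its ATRA mean 0. MAGEB2, the most abundant member, rose from 21.1, 17.3 and 26.8 to 762.1, 877 and 829 (5.198 ± 0.25), and TUBA3D, a testis tubulin with close copies, went from 0 to 585, 732 and 667. DPPA3 reached 127 to 185 and DDX43 58.8 to 71.6, both from 0. SPANXB1, of a multicopy X-linked family, had means of 112 ± 9.19 with the combination, 2.01 with DAC and 4.99 with ATRA.

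Loss of methylation acts on CpG dinucleotides, so promoter stretches are shown for 3 genes without an untreated read (DAZL, TUBA3D and S1PR1), for IGFBP5 and CD52, and for BEX1, which fell. Each is the 120 bases before the RefSeq gene start in GRCh38.p14, 5′ to 3′ on the strand of the gene, with CpG dinucleotides in capitals. They differ widely in the number of CpGs.
DAZL, chr3:16605424-16605543, minus strand: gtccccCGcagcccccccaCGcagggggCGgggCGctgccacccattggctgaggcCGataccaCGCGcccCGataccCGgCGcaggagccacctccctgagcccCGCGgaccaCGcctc
TUBA3D, chr2:131475999-131476118, plus strand: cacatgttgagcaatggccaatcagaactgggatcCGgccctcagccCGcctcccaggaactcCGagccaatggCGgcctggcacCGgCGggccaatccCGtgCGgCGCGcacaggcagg
S1PR1, chr1:101236899-101237018, plus strand: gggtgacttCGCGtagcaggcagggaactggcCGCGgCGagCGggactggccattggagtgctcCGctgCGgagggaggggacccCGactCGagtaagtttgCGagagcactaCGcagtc
IGFBP5, chr2:216695550-216695669, minus strand: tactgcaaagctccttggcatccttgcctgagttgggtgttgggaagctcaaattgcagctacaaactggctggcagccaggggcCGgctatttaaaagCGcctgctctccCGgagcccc
CD52, chr1:26317838-26317957, plus strand: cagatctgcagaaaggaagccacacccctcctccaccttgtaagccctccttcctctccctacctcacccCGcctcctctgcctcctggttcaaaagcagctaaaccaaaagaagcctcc
BEX1, chrX:103064172-103064291, minus strand: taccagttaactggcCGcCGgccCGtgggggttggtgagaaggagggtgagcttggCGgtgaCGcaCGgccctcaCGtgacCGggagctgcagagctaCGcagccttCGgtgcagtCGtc
DAZL had 13 CpGs in these 120 bases, S1PR1 12, BEX1 11 and TUBA3D 10, while IGFBP5 had 3 and CD52 1. Among the genes shown, CpG-rich and CpG-poor stretches belonged to genes that rose, and the CpG-rich stretch of BEX1 to a gene that fell. The genes were chosen as examples, so a link between CpG number and direction of change was not tested with them. Methylation was not measured in these libraries.

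Over all 6213 symbols with a matched promoter, the ratio of observed to expected CpGs in 300 bases had a median of 0.84. It was 0.66 in the 735 promoters of symbols that rose from an untreated mean under 10 and 0.82 in the 1375 of those that rose from at least 10. It was 0.87 in the 923 promoters of fallen symbols and 0.86 in the 3180 of symbols that did not pass. A ratio over 0.6 was found in 55.1% of the first class, in 78.0%, 86.7% and 86.6% of the others and in 49.0% of all 27195 promoters. The 295 symbols that started under 10 and did not pass had a median of 0.81 and a share of 78.0%. The germline genes had a median ratio of 0.72 (19 promoters), the HOX and MEIS genes 0.86 (13), the chemoattractant receptors 0.24 (10) and the granule proteins 0.15 (7). The retinoic acid response element of the DR5 type, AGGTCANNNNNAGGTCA, was in 0 of the 6213 windows and in 1 of 27195, so these windows do not describe retinoid response elements.

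**Figure D4:**
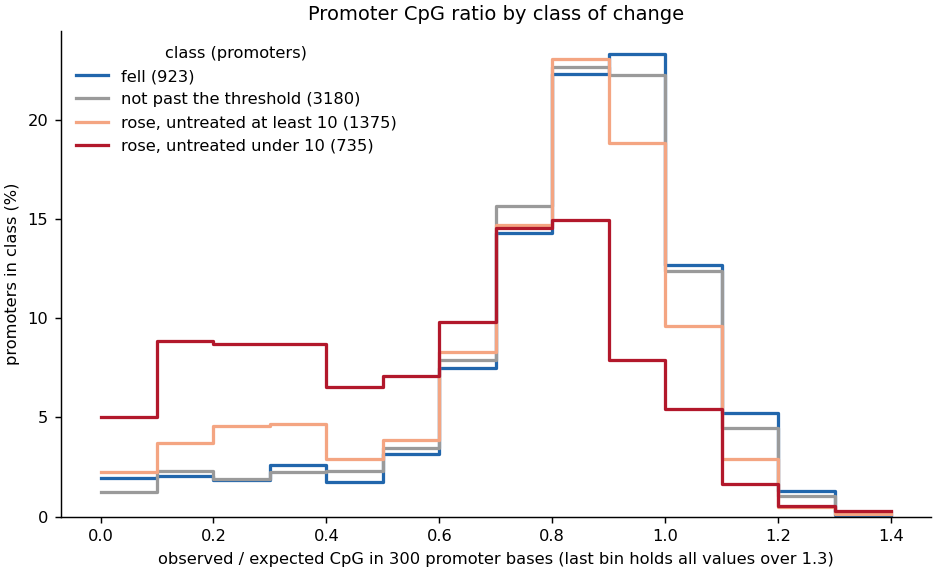
Share of promoters (vertical, in percent of each class) by the ratio of observed to expected CpGs in 300 promoter bases (horizontal) for symbols that fell, did not pass, rose from an untreated mean of at least 10 or rose from one under 10. The last class has the broad shoulder below 0.6, and its median of 0.66 compares with 0.82 to 0.87 in the others.

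HOX genes, which set position along the body axis and the state of blood progenitors, rose in 12 of 21 tested members, and 0 fell. Of the 11 that started at 10 or more, 3 rose, near the 26.9% of all such symbols, and the other 9 risen members started lower. The HOXB cluster gave the largest values. HOXB5 went from 0 to 317, 349 and 344 (at least 366-fold), HOXB9 from 0 to 238, 247 and 272 (at least 273-fold), HOXB8 from 0 to 124, 127 and 114 and HOXB7 from 0 to 82.3, 107 and 85.3. HOXB3 rose from 10.1, 12.7 and 15.7 to 477, 479 and 487 (5.14 ± 0.22) and HOXB4 from 3.05 ± 1.38 to 299 ± 18.2. ATRA alone left HOXB5 and HOXB9 at 0, and DAC alone gave 78.1 and 192. In the HOXA cluster, HOXA5 rose by 0.85, and HOXA9 had 33.9 ± 1.78 and 33.4 ± 6.43 and did not pass. MEIS1, the partner of HOXA9 in leukemia, fell from 926, 1180 and 1268 to 328, 307 and 329 (-1.79 ± 0.15, adjusted p = 1.67e-09).

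The IGF axis, matrix and protease genes rose in 17 of 24 tested members, and 2 fell. Of the 13 that started at 10 or more, 8 rose. TIMP3, an inhibitor of metalloproteinases, had no untreated read and 453, 641 and 533 with DAC + ATRA, at least 586-fold, below its DAC mean of 1083. COL4A2, a basement membrane collagen, went from 3 untreated reads to 556, 564 and 603, and THBS1, thrombospondin, from 1 read to 203, 248 and 252. MMP14, a membrane metalloproteinase, rose from 49.6, 68.3 and 75.7 to 556, 735 and 618 (3.29 ± 0.21) with a DAC mean of 1423. IGFBP7 fell from 34.6 ± 5.77 to 7.89 ± 1.86. Imprinted genes rose in 6 of 9 tested, 3 of them among the 6 that started at 10 or more, with IGF2R, the mannose-6-phosphate receptor, from 4706, 4303 and 4085 to 11300, 14097 and 13244 (1.56 ± 0.11). NAP1L5 went from 0 to 27.3 ± 4.26 and NDN from 0 to 10.8 ± 4.84. SNRPN rose from 8.88 ± 1.46 to 21.0 ± 4.32 and did not pass with edgeR (adjusted p = 0.0101).

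Of 5 tested genes derived from retroviruses, 4 rose, 2 of them among the 3 that started at 10 or more. ERV3-1, an envelope gene of an endogenous retrovirus, rose from 1040, 918 and 967 to 5462, 5657 and 5803 (2.53 ± 0.09, adjusted p = 4.53e-15). ZNF117, a zinc finger gene that shares its locus on chromosome 7, rose from 164, 154 and 142 to 980, 977 and 959 (2.66 ± 0.12). Reads of the overlapping part cannot be told apart between both. Their DAC means were 3959 and 636 and their ATRA means 2634 and 400. ERVH48-1, the envelope-derived suppressyn, had no untreated read and 47.9, 42.1 and 39.5 with the combination, and ARC, a capsid-forming gene, rose from 1.23 ± 1.411 to 103 ± 20.5. Of 20 tested silencing and chromatin enzymes, 7 rose and 4 fell. KDM6B, a demethylase of histone H3 lysine 27, rose by 1.83, and CBX5, the heterochromatin protein HP1 alpha, fell from 10170, 10409 and 10464 to 5202, 5137 and 5124 (-1.01 ± 0.09). BMI1, a Polycomb protein, fell by 1.03, KDM2B by 1.66 and HDAC2 by 0.73 on the log2 scale. CBX5 had an ATRA mean of 10254 and a DAC mean of 5461.

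Genes of DNA replication fell. Of 32 tested, 20 fell and 1 rose, and the 31 that started at 10 or more had a median of -0.85. MCM6, a subunit of the replicative helicase, fell from 8993, 8574 and 8166 to 3419, 3781 and 3578 (-1.26 ± 0.10, adjusted p = 1.26e-09), while its DAC mean was 5038 and its ATRA mean 7510. GINS2, of the same helicase, fell from 3154, 3198 and 3181 to 1134, 1217 and 1137 (-1.45 ± 0.12). CDT1, the licensing factor, fell by 0.96, CDC6, which loads the helicase, by 0.82 and E2F1, which activates these genes, by 0.87 on the log2 scale. E2F2 was the member that rose, from 4437 ± 304 to 7599 ± 624 (0.78 ± 0.09). Mitotic genes moved less, with 3 of 20 tested falling and 1 rising. MAD2L1, of the spindle checkpoint, fell by 0.96 and KIF11, a spindle motor, by 0.37 on the log2 scale. TOP2A had 16866, 14591 and 14974 against 12699, 14598 and 14290 and did not pass. CDC25B, a phosphatase that opens mitosis, went from 0 to 12.7, 16.8 and 18.5. Under TMM scaling 10 mitotic genes fell, beside 1616 of all 7622 symbols.

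Of 17 tested G1 cyclins, kinases and inhibitors, 5 rose and 6 fell, and of the 15 that started at 10 or more, 3 rose and 6 fell, a risen share below that of all such symbols. CDK6, a kinase of the G1 phase, fell from 15813, 15363 and 15208 to 6575, 7091 and 7250 (-1.15 ± 0.09, adjusted p = 9.16e-10). CDKN2B, the inhibitor p15, rose from 13.8, 16.4 and 22.2 to 174, 177 and 201 (3.35 ± 0.25), and CDKN2A, which encodes p16 and p14ARF, from 7.34 ± 0.864 to 68.9 ± 3.10. CCND2 rose by 0.41 and CCND1 by 0.87, and CDK2 fell by 0.93 on the log2 scale. Of 22 DNA damage response genes, 7 rose and 7 fell. GDF15, a stress cytokine, rose from 5.51, 6.37 and 2.77 to 363, 496 and 413 and BTG2, an antiproliferative factor, from 138 ± 14.5 to 1700 ± 75.5. BRCA1, a gene of recombination repair, fell by 0.81 on the log2 scale, and FANCI fell from 13.5 ± 0.461 to 4.05 ± 2.81. FANCI did not pass when transcripts were summed by symbol (adjusted p = 0.0127) or on leaving out any 1 of 3 libraries.

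In the BCL2 family, 9 of 13 tested members rose and 1 fell, 8 of the risen among the 12 that started at 10 or more. BCL2, the founding inhibitor of apoptosis, fell from 4019, 3527 and 3656 to 1410, 1528 and 1641 (-1.29 ± 0.12, adjusted p = 1.73e-08), and its DAC mean was 1783 and its ATRA mean 3722. The genes that rose acted on both sides of apoptosis. BOK, a pore-forming member, went from 0 to 209, 245 and 209, at least 241-fold. BIK, a BH3-only protein, rose from 161, 176 and 223 to 1019, 1098 and 1012 (2.49 ± 0.16), BAK1 by 1.38 and BAX by 0.71. BCL2L1, which encodes the inhibitor BCL-XL, rose by 0.89.

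Ribosome and translation genes fell by small amounts in many members. Of 53 tested ribosomal protein genes, 22 fell and 2 rose, and the 49 that started at 10 or more had a median of -0.59. RPL14 fell from 2176, 2173 and 2210 to 1089, 1168 and 1178 (-0.93 ± 0.09, adjusted p = 2.14e-08). RPL37 fell by 0.67, RPL22 by 0.78 and RPS19, the most abundant tested member, by 0.39 on the log2 scale (adjusted p = 0.00765), a call that was lost on leaving out any 1 of the 6 libraries (adjusted p from 0.0154 to 0.0381). RPL30 was a member that rose, at few reads (3.67 ± 0.897 to 18.6 ± 4.06). Of 29 initiation and elongation factors, 11 fell and 2 rose, with EIF4EBP1, a repressor of initiation, down by 1.13 and EIF2S3 by 0.78 on the log2 scale. EEF2, the most abundant, had 79854, 93768 and 85376 against 74393, 87370 and 79375 and did not pass. Of 35 ribosome biogenesis genes, 14 fell and 1 rose. PA2G4, a nucleolar growth regulator, fell from 4958, 4759 and 4373 to 2149, 2508 and 2273 (-1.02 ± 0.12), and NPM1, nucleophosmin, by 0.84 on the log2 scale. The groups did not overlap for RPL14.

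Splicing factors fell in 12 of 29 tested members, and 2 rose. HNRNPA3 fell from 5138, 4974 and 4650 to 2448, 2331 and 2659 (-0.99 ± 0.12), and SNRNP40 from 24.2 ± 1.504 to 7.43 ± 4.48, the latter a call lost on leaving out any 1 of 3 libraries. HNRNPA0, the most abundant, had 14052 ± 755 and 13521 ± 1070 and did not pass. Of 23 aminoacyl-tRNA synthetases and ATF4 targets, 9 fell and 3 rose. AARS, the alanyl-tRNA synthetase, fell from 3764, 4069 and 3868 to 1637, 1733 and 1584 (-1.24 ± 0.11), and PSAT1, of serine synthesis, by 1.49 on the log2 scale. DDIT4, an inhibitor of mTORC1, rose from 2018, 2028 and 2007 to 4631, 5090 and 4768 and had an ATRA mean of 7128. SLC7A5, the large neutral amino acid transporter, fell from 11092, 9909 and 8682 to 5414, 6142 and 4972 (adjusted p = 0.00759), a call lost without any of 5 single libraries.

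Of 19 tested glycolysis and sugar genes, 6 rose and 6 fell, a risen share near that of all symbols. FBP1, an enzyme of gluconeogenesis, went from 0 to 83.2, 58.9 and 50.7, and HK3, the hexokinase of myeloid cells, rose from 35.5 ± 5.12 to 231 ± 13.4. PGK1 fell by 0.32, GPI by 0.73 and LDHB by 1.86 on the log2 scale. Of 37 nuclear genes of the citrate cycle and respiratory chain, 6 fell and 2 rose, and UQCRFS1, the most abundant tested, fell from 10899 ± 264 to 7590 ± 368. Of the 13 transcripts that the mitochondrial genome encodes, 1 rose and 0 fell, or 1 and 5 with TMM scaling. Of 17 cholesterol and fatty acid synthesis genes, 6 fell and 2 rose, and FADS1, a desaturase, fell by 0.80 on the log2 scale. Genes of lipid efflux and handling rose in 11 of 14 tested members, and 0 fell. Of the 9 that started at 10 or more, 6 rose. Among them PLIN2, which coats lipid droplets, rose from 767, 740 and 725 to 2204, 2605 and 3096 (1.81 ± 0.12) and LRP1 from 7.67 ± 4.77 to 67.3 ± 4.61. Of 19 chaperones and stress genes, 5 rose and 2 fell. HMOX1, heme oxygenase, rose from 20.5 ± 4.37 to 269.9 ± 20.0, and HSPA5, the chaperone of the endoplasmic reticulum, had 20764 ± 1924 and 26477 ± 1873 and did not pass (adjusted p = 0.0118).

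Transcripts outside the protein-coding class showed no such excess of rises. Of 10342 tested, 1998 rose (19.3%) and 1830 fell (17.7%), with a median log2 fold change of -0.10. Among 4386 transcripts with a retained intron, 638 rose (14.5%) and 795 fell (18.1%). Among 2960 long noncoding RNAs, 857 rose (29.0%) and 550 fell (18.6%), an excess of rises. Of 43 small nucleolar RNAs, which guide modification of ribosomal RNA, 0 rose and 10 fell. Among 30 tested members of a list of well-known noncoding RNAs, 8 rose and 9 fell. MEG3, an imprinted tumor suppressor RNA, went from 0 to 141, 121 and 135 normalized reads with a DAC mean of 184, and HOTAIR, from the HOXC cluster, rose from 25.4 to 69.3 on average. NEAT1, the scaffold of paraspeckles, rose from 972, 978 and 988 to 1559, 1398 and 1382 (0.56 ± 0.11). Of 8 tested host genes of small nucleolar RNAs in this list, 5 fell and 0 rose, among them SNHG3, from 701, 556 and 552 to 174, 213 and 180.4 (-1.66 ± 0.13), SNHG15 by 1.05 and SNHG12 by 1.89 on the log2 scale. SNHG5, SNHG6 and SNHG8 did not pass. MALAT1 had means of 412 and 414.

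The 8 largest rises outside the coding class began at few or no reads. AC006126.4 went from 0 to a mean of 1024, RP11-23P13.6 from 0 to 302 and RP11-215P8.4 from 0 to 238. A retained-intron transcript of CEACAM1 went from 0 to 216, beside the coding transcript of the same gene. LINC01413, RP11-206M11.7, PROSER2-AS1 and a WDR86 transcript reached means of 520.1, 575, 426 and 632. MEIS1 had a retained-intron transcript that fell from 68.9 to 4.38, in the direction of its coding transcript. IL12A-AS1 fell from 265 to 31.3, and RP11-57A19.2, NALT1 and transcripts of SPON2, EXD3 and SLC1A4 made up the rest of the 8 largest falls.

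Of the 7622 symbols, 493 (6.47%) were higher and 458 (6.01%) lower with DAC + ATRA than with DAC. Against ATRA alone, 2159 (28.3%) were higher and 708 (9.29%) lower. Counted by transcript, 2335 were higher and 801 lower than with ATRA with the authors' scaling (74.5% higher), and 2163 and 1231 with edgeR (63.7% higher). These comparisons share the DAC + ATRA libraries with each other and with the comparison to untreated cells. Of the 6269 symbols that started at 10 or more normalized reads, 337 (5.38%) were higher and 410 (6.54%) lower than with DAC, and 1296 (20.7%) were higher and 701 (11.2%) lower than with ATRA, with medians against untreated cells of 0.12 with DAC and -0.02 with ATRA. Of the 25 interferon-stimulated effectors that started at 10 or more normalized reads, 13 were higher and 0 lower than with DAC, and 16 were higher and 1 lower than with ATRA. Their medians against untreated cells were 0.78 with DAC, 0.69 with ATRA and 1.32 with both. Of the 8 such retinoid genes, 4 were higher and 0 lower than with DAC, and 1 was higher and 1 lower than with ATRA, with medians of 0.12, 0.49 and 0.61. Of the 31 such DNA replication genes, 5 were lower and 1 higher than with DAC, and 19 were lower and 1 higher than with ATRA, with medians of -0.48, -0.04 and -0.85.

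Of the 13 genes of the IGF axis, matrix and proteases that started at 10 or more, 7 were lower and 0 higher than with DAC, while 8 were higher and 2 lower than with ATRA. The medians were 1.296 with DAC, -0.19 with ATRA and 1.03 with both. Of the 12 such granule proteins, 4 were lower and 1 higher than with DAC, and 7 were higher and 3 lower than with ATRA. Of the 49 such ribosomal protein genes, 12 were lower than with ATRA and 0 lower than with DAC. Of the 6 such germline genes, 0 differed from DAC, and the germline genes that started lower had entered the test through a treated group, so no median over them is compared.

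**Figure D5:**
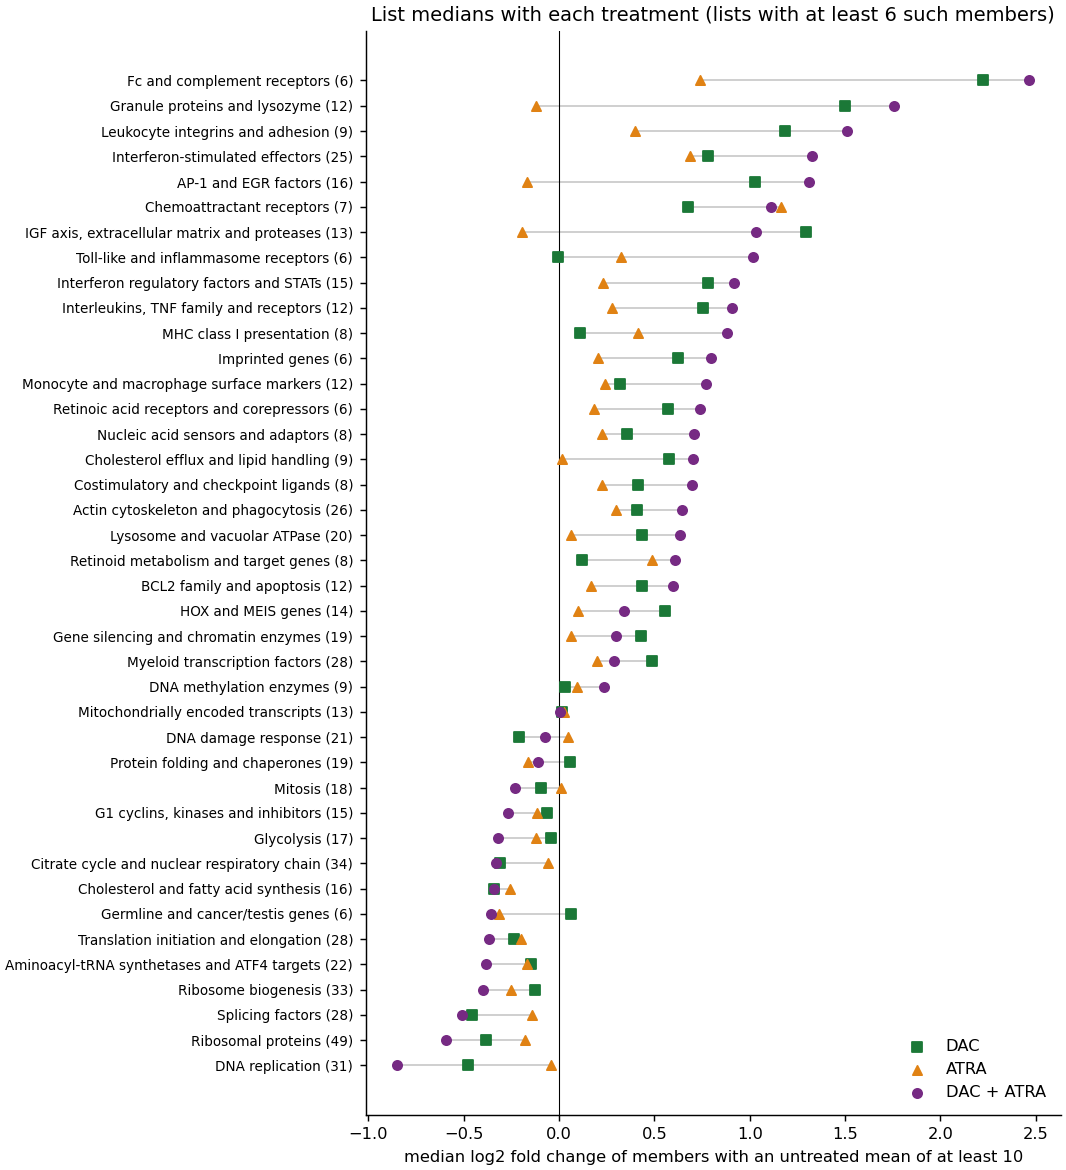
Median log2 fold change against untreated cells of list members with an untreated mean of at least 10 (number in brackets, lists with at least 6 such members) for DAC (green squares), ATRA (orange triangles) and DAC + ATRA (purple circles), all from 1 fit with the same untreated libraries. For the interferon-stimulated effectors the combination stands at 1.32, right of DAC at 0.78 and ATRA at 0.69, and for DNA replication at -0.85, left of both.

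By chromosome, the share of tested symbols that rose was 43.7% on chromosome 20, 43.2% on chromosomes 17 and 22, 41.8% on chromosome 19 and 38.7% on the X chromosome. It was 21.4% on chromosome 18 and 19.3% on chromosome 21, with 103 and 57 symbols tested. Shares of fallen symbols ran from 10.98% on chromosome 17 to 18.7% on chromosome 9.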

How the data were processed

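RNA of U937 cells was sequenced after depletion of ribosomal RNA, as strand-specific paired-end libraries. Per the study's methods the authors aligned reads with STAR to hg38 and counted them with htseq-count. Versions, annotation and strand setting are not given in the sources used here. The deposited values are a signal per transcript, the authors' read counts divided by 1 size factor per library (normalized read counts). Whole reads were recovered from them in all 12 libraries (all values within 0.01 read). DAC library 6 has a size factor near 1, so that its values are close to whole without division, and edgeR was also run without it.

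Transcripts (197782) were matched by identifier to GENCODE 44, 174768 of them with success. Protein-coding transcripts with at least 10 normalized reads in at least 3 of the 12 libraries were tested on log2(normalized read count + 1) in 1 limma fit (3.58.1, trend and robust), with Benjamini-Hochberg adjustment and a threshold of 0.01. Fold changes on this scale understate changes of low genes. A symbol is represented by its tested coding transcript with the highest mean. Against groups with no read, folds are lower bounds from 3 reads over the group, and with 1 to 3 reads ratios carry a 95% counting interval. Intervals and floors cover counting error only. Depth is given with the libraries and limits low transcripts.

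Named genes were the 15 largest rises and 15 largest falls with a mean of at least 20 and no overlap, the extreme and most abundant members of each list or members needed for a role, the 10 most abundant that passed, the 8 largest rises and falls of other transcripts, and genes the study discussed. Members and lists were chosen with earlier results of these data known. Promoters came from RefSeq GRCh38.p14 (6213 of 7622 symbols matched). Alternatives were edgeR (4.0.16), DESeq2 (1.42.0), other scalings, filters, pseudocounts, summing by symbol, other thresholds and leaving out each library. Scripts were tested on simulated data. Some genes are not reported here.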

Additional observations from a re-analysis of the deposited data

How the results depend on the processing

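No paired analysis was possible because the columns carry running numbers and not the replicate numbers of the labels. The count of 4215 changed coding transcripts kept within 1.5 times under every alternative run: 4469 with edgeR (4551 without DAC library 6, an alternative chosen after seeing the data), 4250 with DESeq2, 4445 with TMM, and 3631 to 4488 leaving out 1 library. Against DAC the range was 751 to 1255 and against ATRA 2628 to 3153 leaving out 1 library, and 3110 to 3971 for the other transcripts. Without DAC + ATRA library 10, 288 transcripts were lower than with DAC, against 474 with all libraries. Of the transcripts outside the coding class, 1725 of 3046 changed against untreated cells with a minimum of 50 normalized reads, since fewer were tested. With TMM, 2409 of all 7622 symbols rose and 1616 fell, instead of 2673 and 1120. TMM lowered fold changes, and 10 mitotic, 13 respiratory, 17 translation, 14 ATF4 and tRNA, 9 cholesterol synthesis, 5 chaperone, 2 HOX and MEIS, 2 BCL2 family and 5 mitochondrially encoded genes then fell, instead of 3, 6, 11, 9, 6, 2, 1, 1 and 0, while 3 chaperones and 3 retinoic acid receptors and cofactors rose instead of 5 and 5. Median log2 fold changes near 0 over all tested members, including those that started under 10 and so not the medians of the report, turned sign: with TMM to -0.11 for nucleoside metabolism and -0.14 for mitochondrially encoded transcripts; leaving out a library, medians ran from -0.10 to 0.025 for G1 genes (above 0 without untreated library 1, at 0.022, or DAC + ATRA library 10), from -0.32 to 0.0045 for glycolysis (above 0 without DAC + ATRA library 10), from -0.14 to 0.079 for chaperones (above 0 without untreated library 1, at 0.027, or DAC + ATRA library 10) and from -0.042 to 0.021 for mitochondrially encoded transcripts (below 0 without untreated library 3 or 1, at -0.0061, or DAC + ATRA library 10 or 11, at -0.026 and -0.040). Of 153 named genes that passed, 20 missed the threshold without at least 1 library (adjusted p from 0.010002 to 0.0709), among them RPS19, MAVS, MX2, FANCI, SLC7A5, SLC38A1, SNRPN, SNRNP40, MSN, LDHB, XCL1 and TICAM1, and 0 turned direction. FANCI and DHCR7 did not pass when transcripts were summed by symbol (adjusted p = 0.0127 and 0.0382). The cause was not tested.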
